A study of Mus musculus with 24 samples.

Results

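The microglia genes examined here were Cx3cr1, P2ry12, Tmem119, Csf1r, Aif1, C1qa, C1qb, C1qc and Trem2. They were chosen by name, as the rows of the deposited tables that carry these gene symbols, and all 9 were found among the 24340 genes that the 6 tables share. RNA-seq had been performed on the striatum of R6/1 mice and wild type (WT) littermates, which had received either the histone deacetylase inhibitor RGFP109 or vehicle. R6/1 mice are a model of Huntington's disease that carry, hemizygously and on a C57BL/6J background, exon 1 of the human huntingtin gene with an expanded CAG repeat. The 24 libraries fell into 4 groups, of which WT-vehicle held 5, both R6/1-vehicle and WT-RGFP109 held 6, and R6/1-RGFP109 held 7. All mice were males. RGFP109, an inhibitor of HDAC1 and HDAC3, was injected intraperitoneally at 30 mg/kg on 5 days per week for 3 weeks, starting at 11 to 14 weeks of age, and the vehicle groups received the solvent, DMSO in saline, on the same schedule. Tissue was taken at 14 to 17 weeks of age, 18 h after the last injection. The transgene is driven by the human huntingtin promoter and is not restricted to neurons, so that a difference arising within microglia and one arising in the cells around them cannot be told apart. The libraries had been sequenced in a pair of pools that each held all 4 groups, and pooled group values allow no comparison within a pool.

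Microglia are the resident macrophages of the brain. They derive from the yolk sac, survive through signals that reach the receptor Csf1r, and express in the healthy brain a set of receptors with which they sense neurons, injured cells and lipids. The transcription factor PU.1, encoded by Spi1, drives much of this programme and binds purine-rich sites with a GGAA core. Under disease conditions microglia can lower part of these homeostatic genes and raise others, among them lipid and lysosomal genes.

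The deposited tables give 1 pooled FPKM value (fragments scaled by transcript length and by the mapped reads of the library) for each group in each pair of groups. No spread between mice could therefore be computed for these genes, and every difference below is a description without a test, SD or interval. Cuffdiff had scaled the values within each pair, and the value of a group differed between tables by a common factor of 0.132% to 3.92%, so that ratios were taken within 1 table. Differences are given as log2 ratios after adding 0.05 FPKM to each value, and were read against the ratios of all genes that had at least 1 FPKM in either group. In bulk tissue, fewer microglia and less RNA per microglial cell cannot be told apart.

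All 9 genes were well above this minimum in each group. C1qb was listed at 81.1 FPKM in WT-vehicle, C1qa at 75.2 FPKM and C1qc at 67.5 FPKM. Their products are the 3 chains of C1q, the recognition molecule of the classical complement pathway, which microglia supply to much of the brain. Csf1r, the receptor for the growth factors Csf1 and Il34, stood at 42.8 FPKM. Trem2, a lipid-sensing receptor, followed with 26.2 FPKM, and Cx3cr1, the receptor for the neuronal chemokine Cx3cl1, with 20.2 FPKM. The lowest levels were those of Tmem119, a membrane protein used as a microglial marker, with 15.8 FPKM, of P2ry12, a receptor for ADP that guides microglial processes, with 15.5 FPKM, and of Aif1, the actin-binding protein Iba1, with 11.9 FPKM. The order from C1qb to Aif1 was the same in all 4 groups. Whether neighbours in this order, such as Tmem119 and P2ry12, differ beyond the spread between mice cannot be said from pooled values.

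**Figure D1:**
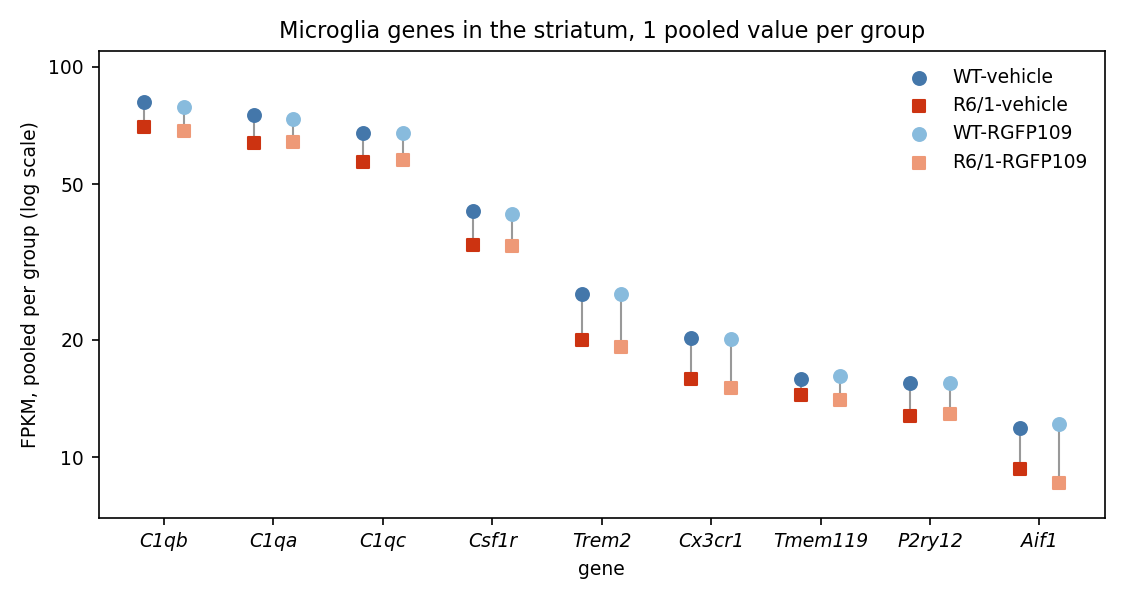
Level of each microglia gene in FPKM (vertical axis, log scale) in the 4 groups, with 1 point for the pooled value of each group and a line joining the R6/1 and WT groups that share a table. Each of the 9 genes was lower in the R6/1 group than in the WT group of the same treatment, from C1qb with 81.1 and 70.2 FPKM to Aif1 with 11.9 and 9.32 FPKM in the vehicle groups.

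The 9 genes lie on 6 chromosomes. On mm10, C1qb (chr4:136880145-136886177), C1qc (chr4:136889802-136892914) and C1qa (chr4:136895916-136898844) are neighbours, and no other annotated gene overlaps them in RefSeq. Aif1 (chr17:35170992-35176001) and Trem2 (chr17:48346401-48352276) share a chromosome, and Tmem119 (chr5:113793729-113800352) lies alone. Cx3cr1 (chr9:120048683-120068296) overlaps the predicted gene Gm33858, and Csf1r overlaps Mir6983 and Gm52352. P2ry12 lies within Med12l, and the tables give both under 1 merged locus (chr3:59006978-59344256). The use of strand in counting was not given in the sources used here. Without it, reads from stretches that overlapping genes share cannot be assigned to 1 of them. Med12l was listed at 4.65 FPKM in WT-vehicle and at 5.54 FPKM in R6/1-vehicle, which was the opposite direction to P2ry12.

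Promoter sequences of 6 of the 9 genes were taken from RefSeq (GRCm38.p6). Up to 250 bases before the gene are shown for 5 of them, since PU.1 is known to act on microglial promoters. Whether PU.1 has a part in the lower levels of these genes in R6/1 striatum was not tested. P2ry12, the other of the 6, was lower as well, and its window is not printed but is counted below. The letters GAGGAA, a purine-rich core of PU.1 sites, or TTCCTC on the other strand, are given in capitals, and each sequence runs 5′ to 3′ along the gene. RefSeq annotates further starts upstream for Aif1 and C1qc, whose windows of 250 bases reach 31 and 22 bases into the gene, and those bases are left out. The stretches shown are chr17:48346151-48346400 on the plus strand for Trem2, and on the minus strand chr17:35176084-35176302 for Aif1, chr4:136886201-136886450 for C1qb, chr4:136892937-136893164 for C1qc and chr9:120068297-120068546 for Cx3cr1.
Trem2: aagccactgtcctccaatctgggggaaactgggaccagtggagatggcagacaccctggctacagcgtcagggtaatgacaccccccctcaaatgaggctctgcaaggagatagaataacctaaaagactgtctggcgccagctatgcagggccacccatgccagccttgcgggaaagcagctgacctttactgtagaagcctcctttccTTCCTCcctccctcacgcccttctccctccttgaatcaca
Aif1: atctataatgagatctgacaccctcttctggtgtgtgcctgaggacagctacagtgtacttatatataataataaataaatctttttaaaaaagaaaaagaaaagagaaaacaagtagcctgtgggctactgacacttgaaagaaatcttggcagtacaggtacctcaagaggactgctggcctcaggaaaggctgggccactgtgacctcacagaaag
C1qb: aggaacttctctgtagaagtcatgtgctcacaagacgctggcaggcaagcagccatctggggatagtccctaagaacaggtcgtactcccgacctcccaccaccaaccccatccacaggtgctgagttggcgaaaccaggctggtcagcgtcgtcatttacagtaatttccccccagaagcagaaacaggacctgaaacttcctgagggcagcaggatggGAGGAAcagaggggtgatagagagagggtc
C1qc: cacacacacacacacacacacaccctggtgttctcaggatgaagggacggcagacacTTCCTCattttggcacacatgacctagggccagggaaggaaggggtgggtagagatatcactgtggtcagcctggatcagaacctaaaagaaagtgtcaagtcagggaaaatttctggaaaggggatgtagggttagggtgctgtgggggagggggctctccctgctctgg
Cx3cr1: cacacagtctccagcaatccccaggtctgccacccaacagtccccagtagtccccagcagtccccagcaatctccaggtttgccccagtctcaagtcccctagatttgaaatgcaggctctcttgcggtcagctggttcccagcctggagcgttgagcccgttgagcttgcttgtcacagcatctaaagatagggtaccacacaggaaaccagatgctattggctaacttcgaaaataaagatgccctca
The letters occurred once before each of Trem2, C1qb and C1qc, and they were absent before Cx3cr1 and P2ry12. The window of Aif1 held them only in the 31 bases within the annotated gene. Among all 32851 promoter windows of the same length 23.3% held them, and among the 13304 windows of genes with at least 1 FPKM 22.1% did. A match of letters is no measure of binding, and 6 windows are too few to set against these shares. The shorter GGAA core was not marked or counted, and the windows of Cx3cr1 and P2ry12 do hold it.

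The first comparison asked how the genotype was related to these genes without the drug. All 9 genes were lower in R6/1-vehicle than in WT-vehicle, by 8.77% to 23.7%, with a median log2 ratio of -0.28, where 51.1% of all genes were lower. Among the surface receptors, Trem2 was listed at 26.2 FPKM in WT-vehicle and at 19.99 FPKM in R6/1-vehicle, a log2 ratio of -0.39. Cx3cr1 was listed at 20.2 and 15.9 FPKM, a log2 ratio of -0.35. These were, with Aif1, the genes furthest below WT. Csf1r was listed at 42.8 and 34.95 FPKM (log2 ratio -0.29), and P2ry12 at 15.5 and 12.8 FPKM (log2 ratio -0.28). Tmem119 stood closest to WT, with 15.8 and 14.5 FPKM and a log2 ratio of -0.13. Aif1, the cytosolic marker, was listed at 11.9 and 9.32 FPKM, a log2 ratio of -0.35.

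The C1q chains took a narrow range in the same comparison. C1qa was listed at 75.2 FPKM in WT-vehicle and 64.0 FPKM in R6/1-vehicle (log2 ratio -0.23), C1qb at 81.1 and 70.2 FPKM (-0.21), and C1qc at 67.5 and 57.0 FPKM (-0.25). The chains therefore kept their proportions. The ratio of C1qa to C1qb was 0.927 in WT-vehicle and 0.912 in R6/1-vehicle, and that of C1qc to C1qb was 0.833 and 0.812. The summed level of the 9 genes was 356 FPKM in WT-vehicle and 298 FPKM in R6/1-vehicle.

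These differences were small beside those of many other genes in this striatum. None of the 9 genes passed an absolute log2 ratio of 0.5, the fold used in the study, while 15.1% of 13886 genes did. Below a log2 ratio of -0.25, which is 15.9% lower, lay 5 of the 9 genes (Cx3cr1, P2ry12, Csf1r, Aif1 and Trem2), against 23.2% of all genes. The count was 3 when the ratio was taken through the other tables, which moved the ratios by at most 0.052. The share of all genes was not computed that way, here or in the comparisons below. This shift follows from the common factors between the tables, so it is no separate check of the count. The median of all genes was -0.0084, with quartiles of -0.22 and 0.17, and 21.3% of all genes were lower than the median of the microglia genes. The single genes ranged from Trem2, with 14.8% of all genes below it, to Tmem119, with 33.8%.

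In the RGFP109 groups, whose libraries are separate from those of the vehicle groups, all 9 genes were again lower in R6/1 mice. Of all genes, 48.4% were lower there. The median log2 ratio of the 9 genes was -0.27, where the median of all genes was 0.0095. Aif1 was listed at 12.2 FPKM in WT-RGFP109 and 8.61 FPKM in R6/1-RGFP109, a log2 ratio of -0.50 that stopped just short of the fold of 0.5. Trem2 was listed at 26.2 and 19.2 FPKM (log2 ratio -0.45), and Cx3cr1 at 20.1 and 15.1 FPKM (log2 ratio -0.41). The 3 genes furthest below WT were thus the ones that had been furthest below it with vehicle. P2ry12 was listed at 15.5 and 12.9 FPKM (-0.27), Csf1r at 41.9 and 34.8 FPKM (-0.27), and Tmem119 at 16.1 and 14.0 FPKM (-0.20). The C1q chains were again close together, with log2 ratios of -0.20 for C1qa (73.7 and 64.2 FPKM), -0.20 for C1qb (78.7 and 68.7 FPKM) and -0.23 for C1qc (67.7 and 57.8 FPKM).

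None of the 9 genes passed the fold of 0.5 with RGFP109 either, against 13.1% of 13870 genes, but Aif1 did, at -0.51, once the ratios were centred on the median of all genes, which made the count 1. Below -0.25 lay the same 5 genes as with vehicle, against 20.2% of all genes in this comparison, and 3 when the ratio was taken through the other tables. All 9 genes were below 0 in both genotype comparisons, as were 41.0% of the 13652 genes measured in both, and 5 of the 9 were below -0.25 in both, as were 15.6% of these genes. The summed level of the 9 genes was 352 FPKM in WT-RGFP109 and 295 FPKM in R6/1-RGFP109.

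**Figure D2:**
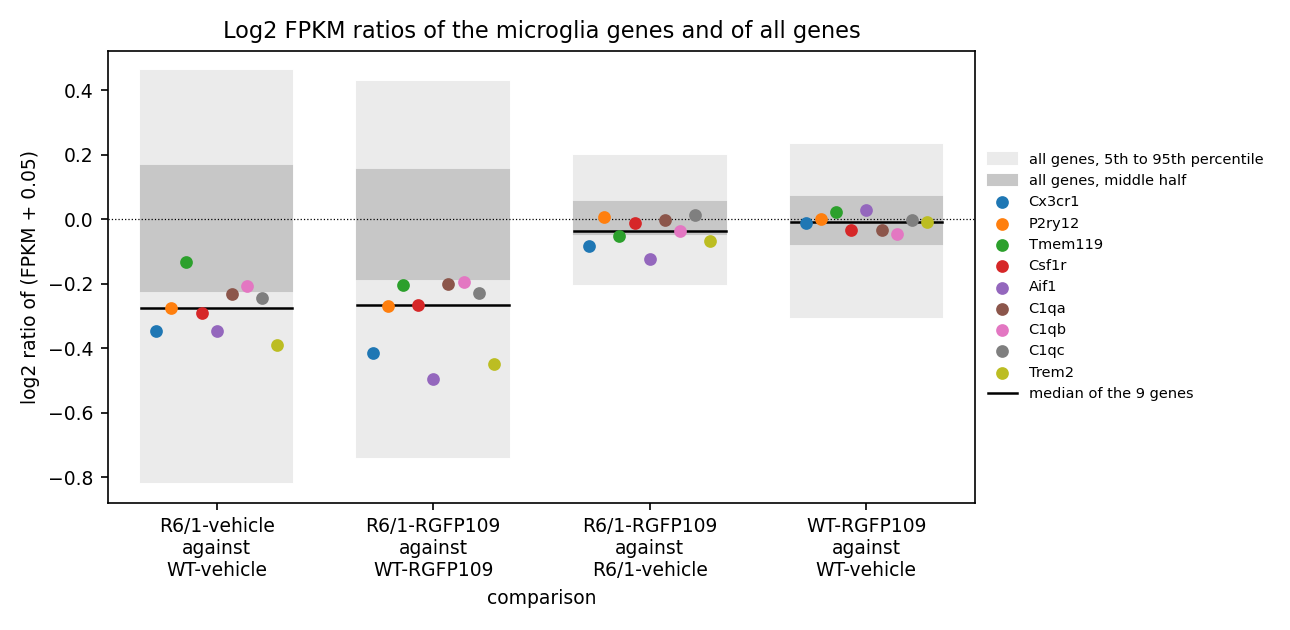
Log2 ratio of FPKM + 0.05 (vertical axis) of each microglia gene in 4 comparisons, with the median of the 9 genes as a line, and with the range of all genes as grey boxes from the 5th to the 95th percentile (light) and between the quartiles (dark). The 9 points lie below 0 in both genotype comparisons, with medians of -0.28 and -0.27, and around 0 in both treatment comparisons, with medians of -0.04 and -0.01.

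The treatment comparisons asked whether RGFP109 was related to these genes within a genotype. In R6/1 mice, 7 of the 9 genes were lower and 2 higher with RGFP109 than with vehicle, where 48.2% of all genes were lower. The differences of the 9 genes were small, with a median log2 ratio of -0.04. Those of all genes were small too, with quartiles of -0.048 and 0.053, and 28.9% of all genes were lower than this median. Aif1 had 9.91% of all genes below it, Cx3cr1 15.6%, Trem2 18.7% and Tmem119 23.2%. These genes lay below the lower quartile, and the others lay between the quartiles. Aif1 was listed at 9.65 FPKM in R6/1-vehicle and 8.86 FPKM in R6/1-RGFP109, a log2 ratio of -0.12. Cx3cr1 was listed at 16.5 and 15.5 FPKM (-0.08), and Trem2 at 20.7 and 19.7 FPKM (-0.07). These 3 genes, the lowest in R6/1 mice relative to WT, were thus no closer to the WT level with the drug. Csf1r, with 36.2 and 35.9 FPKM, and C1qa, with 66.2 and 66.1 FPKM, were almost level, and P2ry12 (13.2 and 13.3 FPKM) and C1qc (59.0 and 59.5 FPKM) were slightly higher. Through the other tables C1qa was on the higher side too, at 0.0026, and the counts were 6 and 3. None of the 9 passed an absolute log2 ratio of 0.25, a threshold that 7.17% of 13719 genes passed.

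In WT mice the log2 ratios of RGFP109 against vehicle ran from -0.05 for C1qb to 0.03 for Aif1, with a median of -0.01. Of the 9 genes, 6 were lower and 3 higher, where 51.1% of all genes were lower. None of the 9 passed 0.25, against 11.0% of 13771 genes. With the size of the spread between mice unknown, a small effect of the drug on these genes cannot be told from no effect.

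The difference between the genotype ratios (RGFP109 minus vehicle) was largest for Aif1, at -0.15. It was -0.07 for Tmem119 and Cx3cr1 and -0.06 for Trem2, and between 0.0070 and 0.032 for P2ry12, Csf1r and the C1q chains. The median over the 9 genes was 0.0070, and that over 14104 genes was 0.0076, with quartiles of -0.082 and 0.10. Aif1 alone lay outside these quartiles. Treated R6/1 mice set against WT-vehicle, a pair that shares its libraries with the comparisons above, showed all 9 genes lower, from -0.18 for Tmem119 to -0.47 for Aif1. In that pair 5 of the 9 were below -0.25, against 22.6% of all genes. WT-RGFP109 set against R6/1-vehicle showed all 9 genes higher, by 0.15 to 0.38, where 50.8% of all genes were lower. Of the 9, 5 were above 0.25, against 20% of all genes, and in both pairs the count was 3 through the other tables.

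The ligands and signalling partners of these receptors formed a list of 8 genes, all of which were lower in R6/1-vehicle than in WT-vehicle, with a median log2 ratio of -0.34. Cx3cl1, the membrane-bound chemokine that neurons present to Cx3cr1, was listed at 311 FPKM in WT-vehicle and 189 FPKM in R6/1-vehicle, a log2 ratio of -0.72, and its ratio was -0.70 in the RGFP109 groups. Ligand and receptor were thus both lower, the ligand by more. Apoe, a lipid carrier bound by Trem2 and made largely by astrocytes, was listed at 1940 and 1308 FPKM (-0.57), and its ratio with RGFP109 was -0.45. Tyrobp, the adaptor through which Trem2 signals, was listed at 57.6 and 45.0 FPKM (-0.36, and -0.28 with RGFP109). The kinase Syk, downstream of Tyrobp, had log2 ratios of -0.34 with vehicle and -0.30 with RGFP109 at a level of about 1 FPKM. Of the ligands of Csf1r, Csf1 had ratios of -0.34 with vehicle and -0.10 with RGFP109, and Il34 one of -0.15 in both comparisons. The phosphatase gene Inpp5d had ratios of -0.24 and -0.13, and the phospholipase gene Plcg2 of -0.09 and 0.0043. With RGFP109 the list had 7 genes lower and 1 higher, with a median of -0.22.

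Among 7 transcription factors of microglia, Runx1 was below 1 FPKM, and the other 6 were lower in R6/1 mice in both comparisons, with medians of -0.26 with vehicle and -0.11 with RGFP109. Spi1 was listed at 3.96 FPKM in WT-vehicle and 3.28 FPKM in R6/1-vehicle (-0.27), and at 3.81 and 3.44 FPKM in the RGFP109 groups (-0.15). Irf8, a partner of PU.1, was listed at 3.70 and 2.37 FPKM with vehicle (-0.63) and at 2.92 and 2.67 FPKM with RGFP109 (-0.13). Irf8 thus had the widest gap between both comparisons in this list. Cebpa had log2 ratios of -0.65 and -0.56. Ikzf1 had ratios of -0.26 and -0.07, Sall1 of -0.17 and -0.01, and Mef2c, which neurons also express strongly, of -0.14 and -0.09. Within R6/1 mice, RGFP109 against vehicle gave 5 of these 6 factors slightly higher, up to 0.16 for Irf8, and Cebpa at -0.01. Within WT mice, 5 of the 6 were lower with RGFP109, with a median of -0.09 and Irf8 the lowest at -0.34.

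**Figure D3:**
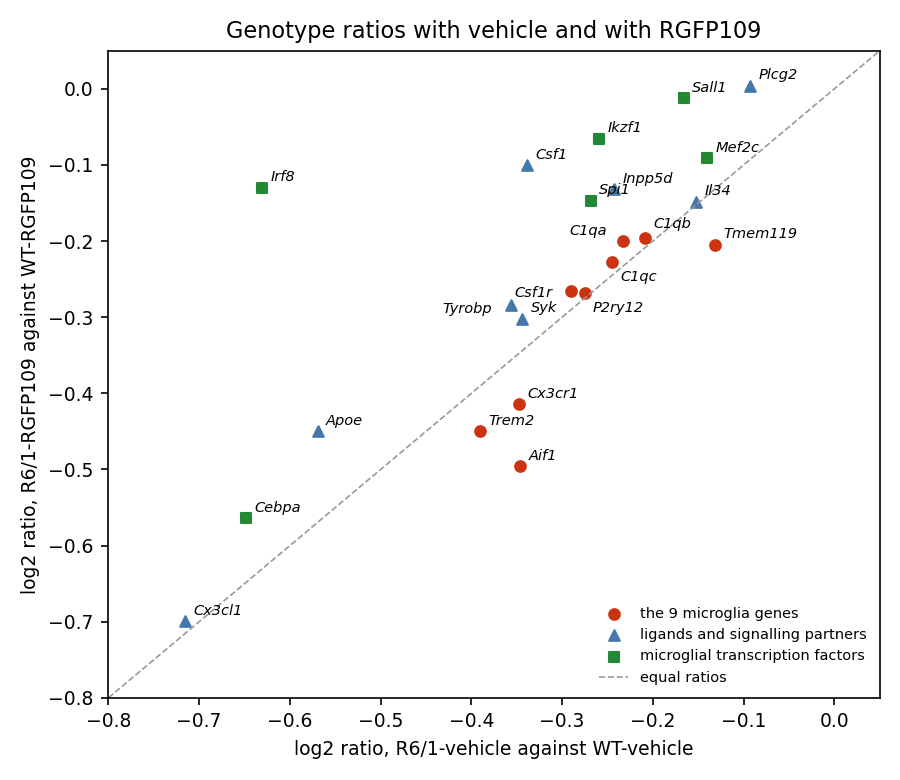
Log2 ratio of R6/1 against WT with vehicle (horizontal axis) and with RGFP109 (vertical axis) for the microglia genes, their ligands and signalling partners, and microglial transcription factors, with 1 point per gene and a dashed line where both ratios are equal. All 9 microglia genes lie at negative values on both axes, Aif1, Trem2, Cx3cr1 and Tmem119 below the line, and Irf8 lies furthest above it with -0.63 and -0.13.

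A list of 27 other genes of homeostatic microglia was lower by less in the vehicle groups, with a median log2 ratio of -0.18. In this list 23 genes were lower and 4 higher in R6/1-vehicle, none passed 0.5, and 7 of the 27 were below -0.25, a share close to the 23.2% of all genes. They ranged from the Fc receptor-like gene Fcrls, listed at 17.2 and 12.6 FPKM (-0.44), to Sparc, which other cell types also express, at 0.15. In the RGFP109 groups all 25 genes with at least 1 FPKM were lower in R6/1 mice, with a median of -0.23, and 10 were below -0.25, against 20.2% of all genes. The 4 genes past the fold of 0.5, which 13.1% of all genes passed, were Olfml3 (-0.62), Hpgds (-0.52), Fcrls (-0.52) and Entpd1 (-0.51), the last an enzyme that degrades extracellular ATP and ADP. Ctss, a lysosomal protease, was closest to WT at -0.01.

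Genes known to rise in disease-associated microglia lay on both sides of WT. Of 19 such genes, 6 were below 1 FPKM in each group (Cst7, Itgax, Clec7a, Gpnmb, Ch25h and Igf1), of which Cst7, Itgax and Clec7a are among the genes that define that state. Of the 13 others, 8 were lower and 5 higher in R6/1-vehicle, with a median of -0.08, from the ferritin gene Fth1 at -0.56 to the osteopontin gene Spp1 at 0.38. With RGFP109, 10 were lower and 3 higher, with a median of -0.18. Spp1 lay on opposite sides of WT in both comparisons, with 6.38 FPKM in WT-vehicle and 8.32 FPKM in R6/1-vehicle but 8.14 FPKM in WT-RGFP109 and 5.35 FPKM in R6/1-RGFP109, and its ratio of RGFP109 against vehicle was -0.64 in R6/1 mice and 0.34 in WT mice. Of 15 inflammatory genes, only Nfkbia, Tspo and Ptgs2 reached 1 FPKM in the genotype comparisons, and Ptgs2, which neurons express too, had the lowest ratio with -0.97 in the vehicle groups and -0.80 in the RGFP109 groups. The highest ratio among those of at least 1 FPKM was that of Tspo, at 0.08 with vehicle and 0.249 with RGFP109. The cytokine genes Il1b, Tnf and Il6 were all below 1 FPKM, as were Cxcl10, Ccl2, Ccl3 and Ccl4. At such low levels the ratios went both ways. Cxcl10 was higher in R6/1 mice with vehicle (log2 ratio 1.75) and with RGFP109 (1.11). Ccl2 was higher with vehicle (2.44) but lower with RGFP109 (-0.36). Ccl3 (-0.75 and -0.42) and Ccl4 (-0.62 and -0.53) were lower in both.

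Other complement genes had no common direction. Of 13 genes, 7 reached 1 FPKM, of which 3 were lower and 4 higher in R6/1-vehicle, with a median of 0.03. The highest was Serping1, which encodes the C1 inhibitor, with a log2 ratio of 0.54, and the lowest Cd59a, an inhibitor of the terminal pathway, with -0.68. With RGFP109, 4 were lower and 3 higher, with a median of -0.13. The lowest was then Cd55, an inhibitor of the C3 convertases, at -0.72, and the highest C4b, the component that C1 cleaves next, at 0.44.

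Genes of other cell types were compared in the same way, since the level of a microglia gene in bulk tissue depends on everything else in the sample. Genes of other macrophages and of blood leukocytes were low. The 8 genes of border macrophages summed to 5.75 FPKM in WT-vehicle and 6.81 FPKM in R6/1-vehicle, and 8 genes of blood leukocytes to 2.23 and 2.68 FPKM, where the 9 microglia genes summed to 356 and 298 FPKM. With RGFP109 both lists were lower in R6/1 mice, at 6.26 and 5.74 FPKM and at 2.99 and 1.89 FPKM. The lower microglia genes were thus accompanied by higher sums of these lists with vehicle and by lower ones with RGFP109. In each comparison only 3 of the 8 border macrophage genes and 2 of the 8 leukocyte genes reached 1 FPKM, so these sums rest on low values.

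The lists of several other cell types had medians below 0 in R6/1 mice, some further from 0 than the microglia genes and some closer to it. All 8 genes of striatal projection neurons, which mark this tissue and which Huntington's disease strongly affects, were lower past the fold of 0.5, with medians of -1.45 with vehicle and -1.47 with RGFP109. All 8 astrocyte genes were below -0.25 in both comparisons, against 23.2% and 20.2% of all genes, with medians of -0.38 and -0.43. The 8 oligodendrocyte genes had medians of -0.80 and -0.24, the 8 endothelial genes of -0.25 and -0.19, the 5 genes of oligodendrocyte precursors of -0.20 and -0.06, and the 10 pan-neuronal genes of -0.15 and -0.28. Medians below 0 were therefore seen in glial and vascular lists beyond microglia, though not every gene was lower. With vehicle, 2 of the 8 endothelial genes and 3 of the 10 pan-neuronal genes were higher. With RGFP109, 1 oligodendrocyte gene, 1 precursor gene and 2 pan-neuronal genes were higher. Of the endothelial genes, 4 were below -0.25 with vehicle and 3 with RGFP109, against the same 23.2% and 20.2% of all genes. The 8 housekeeping genes had medians of 0.05 and -0.03.

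**Figure D4:**
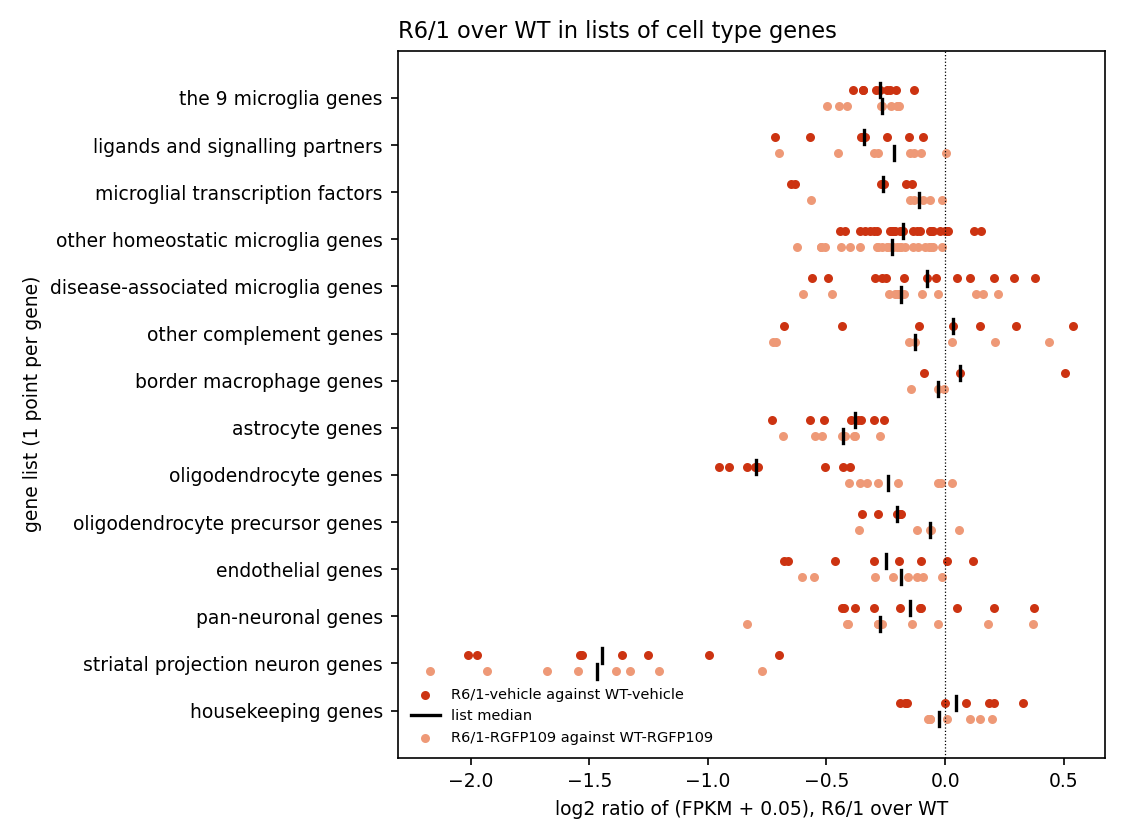
Log2 ratio of R6/1 over WT (horizontal axis) for the genes of 14 lists (vertical axis), with 1 point per gene of at least 1 FPKM, in the vehicle groups and in the RGFP109 groups, and a black bar at the median of each list. The microglia genes lie from -0.39 to -0.13 with vehicle and from -0.50 to -0.20 with RGFP109. Their medians of -0.28 and -0.27 lie between those of the housekeeping genes (near 0) and the striatal projection neuron genes (-1.45 and -1.47).

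Genes that can enter a striatal sample from outside the tissue moved with genotype as well. The 8 choroid plexus genes summed to 50.2 FPKM in WT-vehicle and 28.4 FPKM in R6/1-vehicle, and to 18.3 FPKM in WT-RGFP109 and 10.8 FPKM in R6/1-RGFP109. Of 5 red cell genes, 4 were found in the tables, and they summed to 49.7 and 22.8 FPKM with vehicle and to 51.8 and 17.8 FPKM with RGFP109. Their part in the levels of the microglia genes was not tested. In WT mice the choroid plexus genes had a median log2 ratio of -1.68 and the oligodendrocyte genes one of -0.37 for RGFP109 against vehicle, while the microglia genes stayed between -0.05 and 0.03.

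The pattern of the 9 genes over the 4 groups was not rare in this striatum. The 5 genes closest to their median pattern were Tm7sf2, Agpat1, Mien1, Nr2e1 and Lsm14b, at root mean square distances of 0.0043 to 0.0064 on the log2 scale over the 4 pooled values, and none of them is on a list used here. In all, 868 of 13706 other genes lay within 0.05 of that pattern. Of the 9 microglia genes themselves 5 did (P2ry12, Csf1r, C1qa, C1qb and C1qc). The pattern is the median of these same 9 genes, so their count cannot be set against that of the other genes. Tmem119 lay just outside at 0.052, followed by Cx3cr1, Trem2 and Aif1 with 0.066, 0.083 and 0.092.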

How the data were processed

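Striatal RNA-seq libraries (TruSeq RNA kit, single-end reads of 51 bp) were aligned by the authors with STAR 2.5.0b to mm10, and FPKM values were computed by the authors with Cufflinks 2.2.1 and Cuffdiff 2 on RefSeq genes for each pair of groups. The 6 deposited tables hold 1 pooled FPKM value per group. They also hold the authors' own log2 fold change, test statistic, p-value and q-value, which were not used. Sequencing depth is not known from these values, and values of single libraries were not used here, so no test, SD, interval or comparison of replicates was made.

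From the deposited FPKM, log2 ratios were computed within the table of each pair after adding 0.05 FPKM, with Python 3.11.15, numpy 2.4.6, pandas 2.3.3 and matplotlib 3.10.9. Genes with at least 1 FPKM in either group served as background, and absolute log2 ratios of 0.5 and 0.25 as thresholds. The computation was tested on simulated data. The named genes were the 9 genes, every ligand, partner and transcription factor of at least 1 FPKM, and of the other lists the highest and lowest gene in a comparison, any gene of a microglial list past 0.5, and the 5 genes nearest in pattern. Other genes named at a level below 1 FPKM, or as an overlapping gene, were chosen after their values were seen. The 9 genes and all lists were chosen with earlier results of these data known. The result of 1 gene that the naming rule covers is not reported here, and the gene was left out of its list. Coordinates are those of the tables with 1 added to the start. Alternatives were other pseudocounts, centring on the median of all genes, ratios through the other tables and other FPKM minimums.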

Additional observations from a re-analysis of the deposited data

How the results depend on the processing

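The medians of the 9 genes, their directions in the genotype comparisons and the single ratios stayed within 0.1 log2 of the reported values under every alternative run, and no ratio past 0.25 was reversed. Through the other tables C1qa in R6/1 mice, RGFP109 against vehicle, went from -0.0022 to 0.0026, so that 6 genes were lower and 3 higher there instead of 7 and 2. Centring on all genes took Aif1 in the RGFP109 groups from -0.50 to -0.51 and the count past 0.5 from 0 to 1. The largest shift of a ratio was 0.0024 without a pseudocount, 0.042 with a pseudocount of 1 FPKM, 0.0095 with centring on all genes and 0.052 through the other tables. The last of these took the count of genes past 0.25 from 5 to 3 in each of the 4 pairs that set R6/1 against WT mice, since its shift carried ratios near that threshold across it, with medians of -0.23 for the vehicle groups and -0.22 for the RGFP109 groups. The share of all genes past 0.25 was not computed that way, so the count of 3 has no share to be read against. That shift follows from the common factors between the tables, and the count of 3 is no separate check. With a minimum of 0.1 FPKM, the share of all genes past 0.5 was 5.77% instead of 3.24% for RGFP109 against vehicle in R6/1 mice, and 8.12% instead of 4.22% in WT mice, and the cause was not tested. No paired analysis was possible because the pooled group values carry no replicate numbers, and for the same reason no library could be left out in turn. With 1 pooled value per group, neither the spread between mice nor the weight of a single library is known, and the depth that limits low genes is unknown.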
